A study of Mus musculus with 6 samples.

Results

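The 50 genes described here code for enzymes of central carbon metabolism in cultured mouse microglia, and were chosen by name as members of glycolysis, the pyruvate dehydrogenase step, the pentose phosphate pathway and the TCA cycle, with the reference gene Gapdh among them. They are 50 of the 41079 genes listed in the deposited tables of raw counts and FPKM values (fragments scaled to transcript length and to library size), and 49 of them had enough counts to be tested. RNA was sequenced from 3 control and 3 optimized cultures, to ask how culture conditions modelled on the niche of the central nervous system affect the microglial transcriptome. Control cells were kept in serum-free DMEM/F12 without the additions of the other group. Optimized cells received human TGFbeta, IL34 and CX3CL1 at 100 ng/mL each per the labels, and, as the methods of the study describe, cholesterol, insulin-transferrin-selenium and a collagen IV coating. Both groups were C57Bl/6N microglia from the brains of neonates aged 1 to 3 days and of both sexes, with several brains pooled in a flask. In both, the cells were grown in mixed glial cultures fed with L-929 conditioned medium, a source of the growth factor M-CSF, and detached by shaking, and they met serum briefly while they adhered. The supplements and the coating were changed together, so that their separate effects cannot be told apart. As the methods describe, the mixed cultures were kept for weeks and harvested repeatedly. Which harvest these cells came from, and how long they then stayed in control or optimized medium, is not given in the sources used here.

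Glycolysis splits glucose into pyruvate and yields ATP and NADH, and lactate dehydrogenase converts pyruvate and NADH into lactate and NAD, or the reverse. The pentose phosphate pathway branches off at glucose phosphate, and its oxidative arm supplies NADPH for lipid synthesis, for the NADPH oxidase and for glutathione reduction, while its non-oxidative arm connects ribose phosphate with glycolysis. Pyruvate dehydrogenase, which is switched off by the Pdk kinases, passes carbon into the TCA cycle, and in inflammatory macrophages the enzyme Acod1 diverts the cycle intermediate aconitate to itaconate. Many glycolytic genes are known targets of the hypoxia-inducible factor HIF, and microglia and macrophages are known to use more glycolysis when activated.

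Count totals lay between 20628148 and 27261839 per library, and the 10 most abundant genes took 14.3% to 24.1% of them. Levels are given as CPM, counts scaled to library size with TMM factors (edgeR), and levels of single members are compared with each other as FPKM, which are per length. The FPKM rest on the length that the authors' processing gave each gene, and the order of members can depend on it. Some shares are therefore also given per length of the canonical transcript (GENCODE M39), a comparison added after the data were seen. Summed CPM are not per length. Of the 8 microglia markers, 6 were higher and 2 lower in optimized cultures (edgeR), and their summed CPM was 6443 to 6550 in control and 11965 to 14316 in optimized libraries. The summed CPM of the other cell types was far lower, at 34.7 to 37.4 against 23.5 to 27.0 for 7 astrocyte markers, 5.12 to 6.07 against 6.95 to 8.12 for 7 neuron markers, 139 to 156 against 169 to 209 for 7 oligodendrocyte markers and 21.3 to 27.8 against 22.0 to 78.7 for 5 fibroblast markers. No marker was at 0 in every library, but the neuron markers Snap25 and Syt1 had at most 2 counts in any library. Aldoc and Eno2 among the members are also genes of astrocytes and neurons. The part of these cells in the results was not tested. Optimized library 1 had the lowest CPM of its group for 35 of the 49 members (71.4%, against 43.1% of all genes tested), and control library 3 the highest of its group for 32 members (65.3%, against 34.5% of all genes tested). Calls of members that were lost or gained without either library are named beside the result.

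The members moved in both directions, by pathway and by isozyme rather than as a block. Of the 49 members tested, 12 were higher and 10 lower in optimized cultures and 27 did not pass the threshold (edgeR's quasi-likelihood test, Benjamini-Hochberg adjusted p under 0.05 over 14618 genes). Over all genes tested, 14.7% were higher and 15.2% lower, 29.8% in either direction, and the median log2 fold change was 0.02 over the members and 0.01 over all genes. The largest rise was that of the lactate dehydrogenase subunit Ldhb, with a log2 fold change of 2.48, and the largest fall was that of Acod1, which fell by 1.77 on the log2 scale. In glycolysis 10 of 20 genes were higher and 3 lower with a median of 0.39, and in the pentose phosphate pathway 3 of 7 were lower and 0 higher with a median of -0.23. In the TCA group 1 of 15 was higher and 4 lower with a median of -0.21, and around pyruvate dehydrogenase 1 of 7 tested genes was higher and 0 were lower with a median of -0.01. The 2 counts of 0 were also 0 at an unadjusted p under 0.05 and with DESeq2. With a change of at least 0.5 in size required as well, 14 members passed, against 21.8% of all genes tested. Every optimized library was above every control library for 11 of the 49 and below for 14, against 43.9% of all genes tested in either direction. Without optimized library 1 the members counted 18 higher and 9 lower, without control library 3 they counted 10 and 7, and without control library 1 they counted 7 and 8. When counts were scaled by library size without TMM, which moves the median of all genes by -0.13, 9 members were higher and 18 lower, and 32.2% of all genes called were higher, against 49.1% with TMM. As the study describes them, the 3 libraries of a condition are biological replicates.

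**Figure D1:**
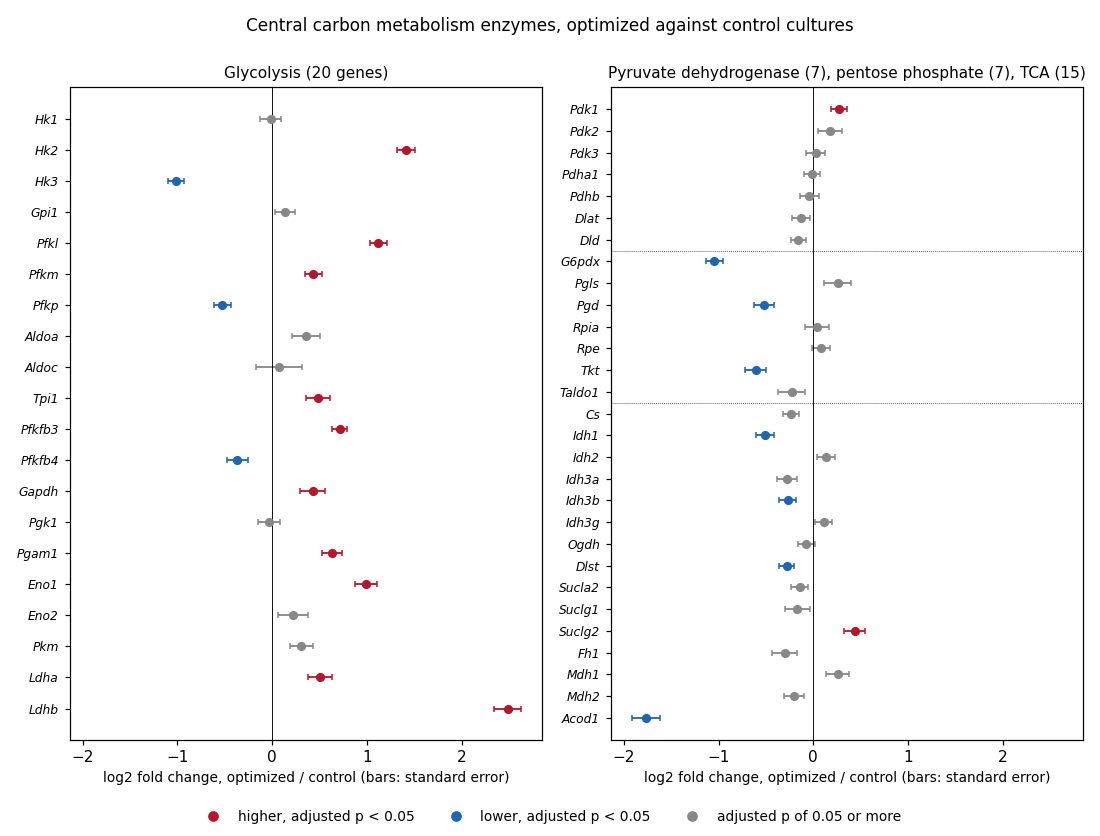
Log2 fold change (optimized over control, x axis) of the 49 members tested, with bars for the standard error, in glycolysis (left) and in the other 3 pathways (right). Red points are higher and blue points lower at an adjusted p under 0.05 (edgeR), and Ldhb lies farthest to the right at 2.48 and Acod1 farthest to the left at -1.77.

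Promoter sequences are shown for 6 glycolytic members because glycolytic genes are textbook targets of HIF, and because they moved in different directions. ACGTG is 1 form of the letters that HIF binds, and the only form searched here. The search took the 250 bases before each RefSeq transcription start (GRCm38.p6, read 5′ to 3′ on the strand of the gene) and looked for ACGTG on both strands, so that a match reads ACGTG or CACGT. The letters CACGTG, which hold both and are also bound by E-box factors such as USF and MYC, count as 2 matches. Matches are in capitals. Ldha, Hk2 and Pfkfb3 were higher in optimized cultures, Pgk1 did not pass the threshold, Ldhb had the largest rise, and Hk3 was lower. For Ldha and Pfkfb3, which have 2 windows each, the window with more matches is shown.
Ldha, chr7:46845554-46845803, plus strand: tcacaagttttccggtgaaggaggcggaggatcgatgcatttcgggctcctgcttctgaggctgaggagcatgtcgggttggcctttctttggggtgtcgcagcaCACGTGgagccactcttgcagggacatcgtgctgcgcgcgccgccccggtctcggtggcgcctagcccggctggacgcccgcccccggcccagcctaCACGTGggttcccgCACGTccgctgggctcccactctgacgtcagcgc
Hk2, chr6:82774455-82774704, minus strand: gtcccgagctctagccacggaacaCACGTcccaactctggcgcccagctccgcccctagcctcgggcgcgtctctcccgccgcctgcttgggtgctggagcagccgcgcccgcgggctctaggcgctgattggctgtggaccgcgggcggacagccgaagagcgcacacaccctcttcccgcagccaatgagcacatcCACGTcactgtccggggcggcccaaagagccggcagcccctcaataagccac
Pfkfb3, chr2:11502091-11502340, minus strand: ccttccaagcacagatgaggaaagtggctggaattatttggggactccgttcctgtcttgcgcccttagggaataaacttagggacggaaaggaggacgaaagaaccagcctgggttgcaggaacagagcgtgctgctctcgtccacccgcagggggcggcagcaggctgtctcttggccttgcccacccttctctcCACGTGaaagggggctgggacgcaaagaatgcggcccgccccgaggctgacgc
Pgk1, chrX:106186850-106187099, plus strand: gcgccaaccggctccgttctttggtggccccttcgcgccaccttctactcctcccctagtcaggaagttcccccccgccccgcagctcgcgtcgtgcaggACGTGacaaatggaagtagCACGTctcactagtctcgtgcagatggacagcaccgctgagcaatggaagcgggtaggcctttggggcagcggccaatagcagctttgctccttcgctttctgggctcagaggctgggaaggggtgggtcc
Ldhb, chr6:142507958-142508207, minus strand: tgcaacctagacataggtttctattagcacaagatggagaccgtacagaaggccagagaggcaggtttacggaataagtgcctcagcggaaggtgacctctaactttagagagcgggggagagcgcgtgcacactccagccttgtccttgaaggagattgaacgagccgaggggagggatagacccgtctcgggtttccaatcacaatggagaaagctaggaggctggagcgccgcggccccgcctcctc
Hk3, chr13:55021386-55021635, minus strand: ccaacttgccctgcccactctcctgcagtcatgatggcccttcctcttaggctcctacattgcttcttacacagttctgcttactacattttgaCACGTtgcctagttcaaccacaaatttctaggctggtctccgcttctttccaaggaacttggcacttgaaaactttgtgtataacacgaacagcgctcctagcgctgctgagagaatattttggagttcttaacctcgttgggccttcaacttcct
The Ldha window held 5 matches, those of Hk2, Pfkfb3 and Pgk1 held 2 each, that of Hk3 held 1, and the Ldhb window held 0. A match was present in 16 of the 49 members with a window (32.7%), in 24.6% of the tested genes with one, and in 16.6% of all windows of this length. It was present in 5 of 12 higher, 2 of 10 lower and 9 of 26 uncalled members. The 6 genes shown thus held matches more often than the members did, and are not typical of them. These are matches of letters and not measured sites, and a window without them says only that ACGTG is not in these 250 bases. Other forms of the HIF site, such as GCGTG, were not searched, so these shares do not cover them.

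The hexokinases, which trap glucose in the cell as glucose phosphate, moved apart. Hk2, the inducible isozyme that binds mitochondria (chromosome 6 from 82699740 to 82751469 of GRCm39), had 43.3, 41.0 and 38.8 CPM in control libraries 1 to 3 and 119.8, 104 and 104 CPM in optimized libraries 1 to 3. Every optimized library was above every control library, and Hk2 rose 2.66-fold with a log2 fold change of 1.41 (SE 0.09, edgeR adjusted p = 2.8e-06). Hk3, the isozyme of myeloid cells (chromosome 13 from 55153798 to 55169276), had 568, 541 and 583 CPM in control and 266, 272 and 297 CPM in optimized libraries, again without overlap and in the opposite direction. Its log2 fold change was -1.02 (SE 0.09, edgeR adjusted p = 1.6e-05). Hk1, the widely expressed isozyme, had a log2 fold change of -0.01 (edgeR adjusted p = 0.94), and its libraries overlapped. In bulk RNA, fewer cells of a type and less RNA per cell cannot be told apart. Per length, Hk3 remained the most abundant of the 3 in both groups, at 164 ± 3.88 FPKM in control and 73.8 ± 5.60 FPKM in optimized cultures (SD, n = 3 each), while Hk2 had 6.96 ± 0.608 and 16.8 ± 1.98 FPKM. Hk3 made up 90.5, 91.5 and 91.8% of the summed hexokinase FPKM in control libraries 1 to 3 and 72.8, 75.6 and 76.4% in optimized libraries 1 to 3. The Hk2 share was 3.86 ± 0.275% in control and 17.1 ± 1.81% in optimized cultures, and the Hk1 share was 4.87 ± 0.532% and 8.02 ± 0.287% (SD, n = 3 each). The ratio of Hk2 to Hk3 FPKM was 0.0423 ± 0.0032 in control and 0.228 ± 0.030 in optimized cultures (SD, n = 3 each).

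Phosphofructokinase, the main control point of glycolysis, showed a like division between its subunits. Pfkl, the liver-type subunit (chromosome 10 from 77818084 to 77845922), had 98.2, 97.3 and 92.6 CPM in control and 188, 217 and 220.2 CPM in optimized libraries, a 2.17-fold rise without overlap. Its log2 fold change was 1.12 (SE 0.09, edgeR adjusted p = 1.0e-05). Pfkp, the platelet-type subunit (chromosome 13 from 6629798 to 6698970), had 48.1, 43.0 and 45.4 CPM in control and 33.3, 29.7 and 31.6 CPM in optimized libraries, and every optimized library lay below every control library. Pfkp had a log2 fold change of -0.53 (SE 0.09, edgeR adjusted p = 0.0015). It shares 11.1% of its exon bases with Pitrm1 on the opposite strand, which itself had a log2 fold change of 0.07 (edgeR adjusted p = 0.64). Pfkm, the muscle-type subunit, rose with a log2 fold change of 0.43 (edgeR adjusted p = 0.0055), and had the lowest coefficient of variation of all tested members in both groups, with 14.9, 15.2 and 15.5 CPM in control and 20.6, 20.8 and 20.3 CPM in optimized libraries. That call was lost with limma on log2(FPKM + 1) and on log2(FPKM + 0.1), at adjusted p-values of 0.054 and 0.052. Of the summed FPKM of the 3 subunits, Pfkl held 73.6 ± 0.835% in control and 85.1 ± 1.32% in optimized cultures, Pfkp 12.1 ± 0.607% and 4.50 ± 0.565%, and Pfkm 14.3 ± 0.608% and 10.4 ± 0.786% (SD, n = 3 each). The Pfkm share was thus lower in optimized libraries although its CPM was higher. Pfkl held the most and Pfkp lost share under either length, but the order of Pfkp and Pfkm depended on it. The FPKM treat Pfkp as 3.54 times as long as Pfkm, whereas the canonical transcripts have 4308 and 3997 bases. With these, Pfkp held 27.9 ± 1.16% in control and 11.6 ± 1.36% in optimized cultures, and Pfkm 10.1 ± 0.448% and 8.17 ± 0.558% (SD, n = 3 each).

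The 2 listed enzymes that make and remove fructose-2,6-bisphosphate, the activator of phosphofructokinase, also moved apart. Pfkfb3, whose kinase activity favours the activator (chromosome 2 from 11476244 to 11558888), had 106, 103 and 102 CPM in control and 179.9, 159.8 and 169.8 CPM in optimized libraries. Its log2 fold change was 0.71 (SE 0.08, edgeR adjusted p = 1.1e-04), and the groups did not overlap. Pfkfb4 had a log2 fold change of -0.37 (edgeR adjusted p = 0.028), with 50.0, 55.6 and 57.0 CPM in control and 36.4, 43.8 and 46.0 CPM in optimized libraries. The Pfkfb4 call was lost without control library 2 or control library 3, with edgeR adjusted p-values of 0.10 and 0.097. Pfkfb3 made up 61.9, 58.7 and 57.8% of the summed FPKM of the pair in control and 79.1, 73.7 and 73.9% in optimized libraries.

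**Figure D2:**
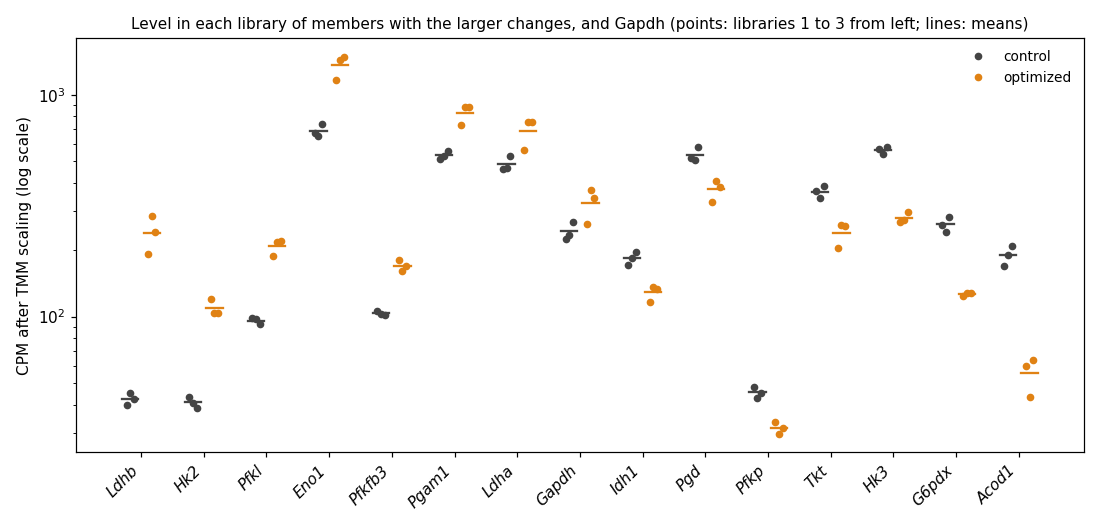
CPM after TMM scaling (y axis, log scale) of the 14 members called with a change of at least 0.5 and of Gapdh, for control (grey) and optimized (orange) libraries, 1 to 3 from the left for each gene, with a line at each mean. The 2 groups of points are apart for every gene drawn except Gapdh, where the lowest optimized library (260.5 CPM) lies below the highest control library (268 CPM).

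Between the phosphofructokinase step and pyruvate, Eno1 and Pgam1 showed the largest rises. Eno1, the main enolase (chromosome 4 from 150321073 to 150337027), had 670.0, 651 and 734 CPM in control and 1162, 1437 and 1484 CPM in optimized libraries, and its log2 fold change was 0.99 (SE 0.12, edgeR adjusted p = 1.4e-04). Pgam1, the phosphoglycerate mutase one step before it (chromosome 19 from 41900341 to 41907104), had 515, 531 and 557 CPM in control and 727, 879 and 879.8 CPM in optimized libraries. Pgam1 rose 1.55-fold with a log2 fold change of 0.63 (SE 0.10, edgeR adjusted p = 0.0011). In both genes the groups did not overlap, and optimized library 1 was the lowest of its group. Gapdh, which makes NADH in the middle of the pathway (chromosome 6 from 125135289 to 125143518), had 225, 234 and 268 CPM in control and 260.5, 373 and 343 CPM in optimized libraries, so that optimized library 1 lay below control library 3. Its log2 fold change was 0.43 (SE 0.13, edgeR adjusted p = 0.038). Without optimized library 1 the value was 0.56 (edgeR adjusted p = 1.5e-04), and the call was lost without control library 1 or 2 or optimized library 2 or 3, when TMM was left out and in the 3 limma fits to FPKM. Tpi1, triose phosphate isomerase, had a log2 fold change of 0.48 (edgeR adjusted p = 0.016) and no overlap between groups. Tpi1 lost its call without control library 1 or 2 or optimized library 3, and in the 3 limma fits to FPKM. Pgk1, which yields the first ATP of the pathway, had 503, 484 and 544 CPM in control and 419, 521 and 555 CPM in optimized libraries, with overlap. The log2 fold change of Pgk1 was -0.03 (edgeR adjusted p = 0.86).

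The other glycolytic members did not pass the threshold. Aldoa, the main aldolase (731 ± 41.2 and 849 ± 129 FPKM, SD, n = 3 each), had a log2 fold change of 0.36 (edgeR adjusted p = 0.093), and Pkm, pyruvate kinase, had 0.31 (edgeR adjusted p = 0.084). Under 17 alternative settings, Aldoa passed in 5 and Pkm in 3, in both cases also without optimized library 1. Gpi1, glucose phosphate isomerase, had 0.14 (edgeR adjusted p = 0.38) and passed only without that library among the settings tried. Aldoc and Eno2, the brain isozymes, had 0.07 (edgeR adjusted p = 0.86) and 0.22 (edgeR adjusted p = 0.36) on the log2 scale and stayed minor, with Aldoc at most 0.178% of the aldolase FPKM and Eno2 at most 0.970% of the summed FPKM of Eno1 and Eno2 in any library. Several of these genes have near-identical copies in the genome, and how the authors treated reads that fit several places is not stated. Of the 100-base windows of the transcript, 89.8% in Pgk1, 88.8% in Pgam1, 85.1% in Gapdh and 51.9% in Eno1 occurred exactly elsewhere in GRCm39, against 19.2% in Suclg2, 12.4% in Pkm, 10.5% in Pdhb and under 10% in every other member. The effect of this on their levels was not tested, so the levels and changes of Pgk1, Pgam1, Gapdh and Eno1 are uncertain. Aldoa shares 43.1% of its exon bases with the listed gene Gm57854 on the same strand, whose mean count was 0.997 of that of Aldoa. In all, 28 of the 50 members have an exon that overlaps one of another listed gene, and for 10 of them that gene had at least 0.2 of the member's mean count.

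Lactate dehydrogenase showed the largest change of the set. Ldhb, the heart-type subunit (chromosome 6 from 142435672 to 142454586), had 40.0, 45.2 and 42.5 CPM in control and 192, 283 and 239 CPM in optimized libraries, a 5.59-fold rise. Its log2 fold change was 2.48 (SE 0.14, edgeR adjusted p = 1.1e-06), and no optimized library came near the control range. Ldha, the muscle-type subunit (chromosome 7 from 46490899 to 46505061), had 465, 467 and 528 CPM in control and 566, 751 and 751 CPM in optimized libraries. The log2 fold change of Ldha was 0.50 (SE 0.12, edgeR adjusted p = 0.013), and it missed the threshold without control library 1, control library 2 or optimized library 3, with adjusted p-values between 0.058 and 0.070 (edgeR). Per length, Ldhb had 33.2 ± 2.49 FPKM in control and 168 ± 25.6 FPKM in optimized cultures, and Ldha 92.5 ± 3.39 and 119 ± 15.8 FPKM (SD, n = 3 each). The Ldhb share of their summed FPKM was 26.1, 28.4 and 24.8% in control and 58.1, 60.7 and 56.6% in optimized libraries. Whether Ldhb exceeded Ldha in optimized cultures depended on the length used, while the rise of its share did not. The FPKM treat Ldha as 4.10 times as long as Ldhb, but the canonical transcripts have 1588 and 1529 bases. With these, the Ldhb share was 8.20%, 9.14% and 7.71% in control libraries 1 to 3 and 26.0%, 28.1% and 24.9% in optimized libraries 1 to 3, below Ldha in every library. On the CPM scale, which is not per length, it was 8.06% in control and 25.6% in optimized cultures on average.

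**Figure D3:**
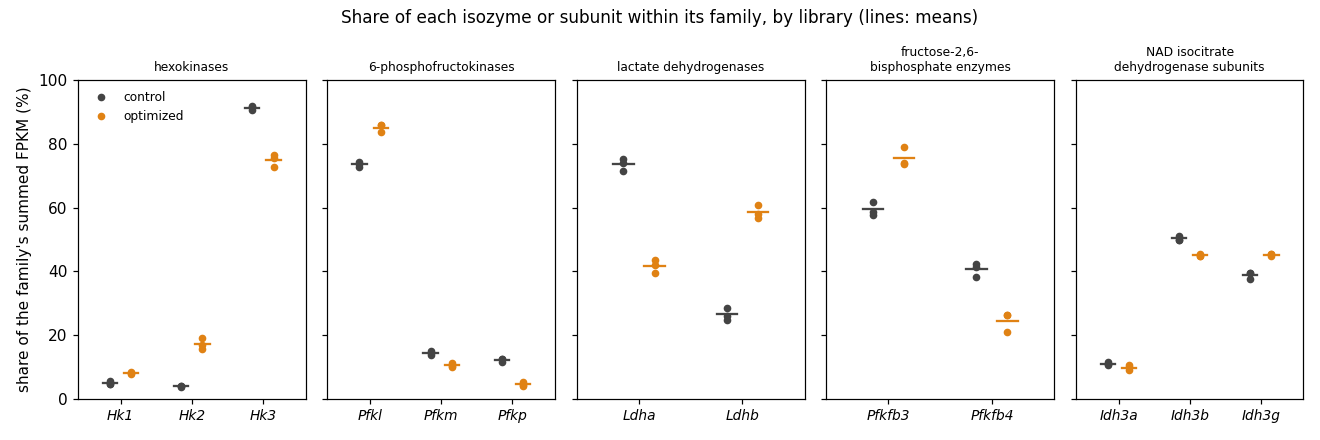
Share of each isozyme or subunit in the summed FPKM of its family (y axis, percent) in control (grey) and optimized (orange) libraries, with a line at each mean, for hexokinases, phosphofructokinases, lactate dehydrogenases, the Pfkfb pair and the NAD-dependent isocitrate dehydrogenase. The Ldhb share was 24.8% to 28.4% in control and 56.6% to 60.7% in optimized libraries on this scale (at most 28.1% per canonical transcript length), and Hk3 stayed the largest hexokinase share at 72.8% or more.

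Over the 8 families with more than 1 member, 17 shares were compared, a pair of isozymes being counted once, and 13 of them did not overlap between groups. The shares of a family add up to the whole, so those of larger families also depend on each other. A share can thus move through another gene, as the Hk1 share did with a log2 fold change of -0.01 for Hk1 itself. No like count was made over other gene families. The exact permutation test of 3 against 3 libraries cannot give a two-sided p below 0.1, and each of the 13 reached that value, so none could pass 0.05. The shares that overlapped were those of the aldolases and of Pdk1, Pdk2 and Pdk4. Eno2 held 0.880 ± 0.0784% in control and 0.533 ± 0.198% in optimized cultures, and Pdk3 6.59 ± 0.170% and 5.68 ± 0.347% of the kinases (SD, n = 3 each). Per canonical transcript length, Pdk3 held 21.2 ± 0.478% and 18.7 ± 0.940%, and 14 of the 17 shares did not overlap, that of Pdk1 being the one added.

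Around pyruvate dehydrogenase only the kinase gene Pdk1 passed the threshold. The subunits Pdha1, Pdhb, Dlat and Dld had log2 fold changes between -0.16 and -0.01 and did not pass. Of the kinases that switch the complex off, Pdk1, a known HIF target, had 98.6, 98.4 and 87.7 CPM in control and 114, 113 and 117 CPM in optimized libraries, a log2 fold change of 0.27 (edgeR adjusted p = 0.032). This call was lost under 9 of 17 alternative settings, among them the removal of any control library or of optimized library 3. Pdk2 and Pdk3 had log2 fold changes of 0.17 (edgeR adjusted p = 0.36) and 0.02 (edgeR adjusted p = 0.88). Pdk4, a kinase induced by fasting, was too low to test, with 1, 4 and 5 counts in control libraries 1 to 3 and 16, 5 and 10 counts in optimized libraries 1 to 3. The summed CPM of the group was 347, 355 and 350.5 in control and 346, 369 and 365 in the optimized ones, so that the groups overlapped.

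In the pentose phosphate pathway, both NADPH-yielding dehydrogenases and transketolase were lower in optimized cultures. G6pdx, the entry enzyme that sets the flow into the pathway (chromosome X from 73449857 to 73472819), had 259, 242 and 282 CPM in control and 124, 128 and 127 CPM in optimized libraries. The groups did not overlap, and G6pdx had a log2 fold change of -1.04 (SE 0.09, edgeR adjusted p = 1.2e-05), which is a change of -51.5%. It shares 8.1% of its exon bases with Ikbkg on the opposite strand, which had a log2 fold change of -0.31 (edgeR adjusted p = 0.016). Pgd, the second NADPH-yielding enzyme (chromosome 4 from 149233246 to 149251228), had 518, 505 and 583 CPM in control and 329.7, 409.6 and 382 CPM in optimized libraries, and a log2 fold change of -0.52 (SE 0.11, edgeR adjusted p = 0.0046). Tkt, the transketolase that returns sugar phosphates to glycolysis (chromosome 14 from 30270156 to 30299612), had 367, 342 and 387 CPM in control and 203, 259.8 and 255 CPM in optimized libraries, and its log2 fold change was -0.61 (SE 0.11, edgeR adjusted p = 0.0021). In all 3 genes every optimized library lay below every control library, and the calls were kept under all 17 alternatives. The other 4 enzymes did not pass the threshold. Pgls, the lactonase between G6pdx and Pgd, had a log2 fold change of 0.26 (edgeR adjusted p = 0.21), Taldo1, transaldolase, -0.23 (edgeR adjusted p = 0.26), and the isomerases Rpia and Rpe 0.04 (edgeR adjusted p = 0.86) and 0.08 (edgeR adjusted p = 0.59). Pgls passed in the higher direction in 3 of the 17 alternatives, among them without optimized library 1, and Taldo1 in the lower direction in 2.

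Set against each other within a library, where the scaling cancels, the pathways differed between groups. The summed CPM of the 20 glycolytic genes was 7665, 7380.1 and 8362 in control and 8779.9, 10999.5 and 10986 in the optimized ones, while that of the 7 pentose phosphate genes was 1652, 1625 and 1853 in control and 1068, 1368 and 1285 in the optimized ones. Their ratio was 4.64, 4.54 and 4.51 in control libraries 1 to 3 and 8.22, 8.04 and 8.55 in optimized libraries 1 to 3. Optimized library 1, the lowest of its group in both sums, was thus close to the others in the ratio. At the branch point itself, the ratio of G6pdx to Gpi1 FPKM was 0.703 ± 0.020 in control and 0.312 ± 0.034 in optimized cultures (SD, n = 3 each). The size of this ratio depends on the length used, while its change between groups does not. The FPKM treat G6pdx as 2401 bases long, but its canonical transcript has 5903. The ratio of summed glycolysis to summed TCA CPM was 5.40, 5.07 and 5.33 in control and 7.71, 8.59 and 8.50 in optimized libraries. That TCA sum includes Acod1 and the cytosolic Idh1, which were both lower, so it does not stand for the cycle alone. A sum follows its most abundant genes, here Pkm and Aldoa, which did not pass the threshold themselves, and no test was run on these ratios.

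**Figure D4:**
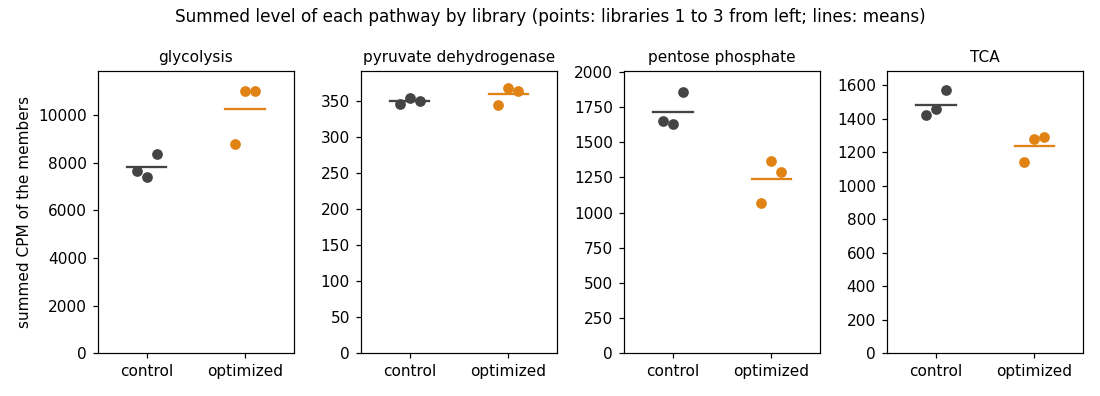
Summed CPM after TMM scaling of the members of each pathway (y axis, from 0) in control (grey) and optimized (orange) libraries 1 to 3 from the left, with a line at each mean. Glycolysis lay at 7380.1 to 8362 in control and 8779.9 to 10999.5 in optimized libraries, and the pyruvate dehydrogenase sums overlapped. The pentose phosphate and TCA sums were lower in every optimized library than in every control library. The TCA sum includes Acod1 and the cytosolic Idh1, which were both lower, and without these genes the sums of the groups overlap.

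In the TCA group the largest change was in a side branch. Acod1, which makes itaconate and is strongly induced by inflammatory stimuli in macrophages (chromosome 14 from 103284413 to 103294009), had 169, 189.8 and 209 CPM in control and 60.0, 43.4 and 63.5 CPM in optimized libraries. Every optimized library was below every control library, and the log2 fold change was -1.77 (SE 0.15, edgeR adjusted p = 1.2e-05). Idh1, the cytosolic isocitrate dehydrogenase that yields NADPH (chromosome 1 from 65196781 to 65225721), had 170.1, 184 and 196 CPM in control and 117, 136 and 133 CPM in optimized libraries, and a log2 fold change of -0.51 (SE 0.09, edgeR adjusted p = 0.0023). Together with G6pdx and Pgd it was the third lower member that makes NADPH in the cytosol, and its mitochondrial counterpart Idh2, for which a log2 fold change of 0.13 (edgeR adjusted p = 0.35) was found, passed in the higher direction without optimized library 1. Idh2 shares 29.4% of its exon bases with Zfp710 on the opposite strand, which fell by 0.59 on the log2 scale (edgeR adjusted p = 7.4e-04) and had 2.14 times its mean count. Both Acod1 and Idh1 kept their calls under all 17 alternatives.

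The enzymes of the cycle itself had small changes. Dlst, a subunit of oxoglutarate dehydrogenase, was lower with a log2 fold change of -0.28 (edgeR adjusted p = 0.023), and Idh3b, a subunit of the NAD-dependent isocitrate dehydrogenase, with -0.27 (edgeR adjusted p = 0.048). Suclg2, the GTP-forming subunit of succinyl-CoA ligase, was the only higher member of the group, with 26.2, 33.5 and 29.6 CPM in control and 38.4, 43.4 and 39.0 CPM in optimized libraries, for a log2 fold change of 0.44 (edgeR adjusted p = 0.014). Each of these 3 calls was lost without some single libraries. That of Dlst was lost without control library 1, control library 3 or optimized library 3, and that of Idh3b without any library except optimized library 2. That of Suclg2 was lost without control library 1 or 3, with library size alone and in the 3 limma fits to FPKM. Cs, the citrate synthase that starts the cycle, had a log2 fold change of -0.24 (edgeR adjusted p = 0.063), Idh3a -0.28 (edgeR adjusted p = 0.071) and Mdh2 -0.21 (edgeR adjusted p = 0.18), and the libraries did not overlap for these 3 genes although none passed. Under 17 alternative settings, Cs passed in 8, Idh3a in 7 and Mdh2 in 6. The remaining members, Idh3g, Ogdh, Sucla2, Suclg1, Fh1 and Mdh1, had log2 fold changes between -0.30 and 0.26 with overlapping libraries. Of these, Fh1 passed in the lower direction in 7 of the 17 settings, among them without optimized library 2. Mdh1 passed in the higher direction in 4, among them without optimized library 1, and Sucla2 in the lower direction in 4. The 3 subunits of the NAD-dependent enzyme did not keep their proportions, as Idh3b held 50.4 ± 0.696% of their FPKM in control and 45.1 ± 0.408% in optimized cultures and Idh3g 38.8 ± 1.11% and 45.2 ± 0.384% (SD, n = 3 each). Idh3g shares 5.8% of its exon bases with Ssr4 on the opposite strand, which rose by 0.77 on the log2 scale (edgeR adjusted p = 0.0079). The count of lower TCA members depended on the scaling, with 4 under TMM and 9 with library size alone, and it was 2 without control library 1, control library 3 or optimized library 3.

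Genes next to these pathways gave a mixed picture of their own. Of 49 listed neighbours, 41 were tested, and 8 were higher and 11 lower with a median log2 fold change of -0.06, against 14.7% and 15.2% of all genes tested. Without control library 1, 7 were lower. Slc16a3, the lactate exporter MCT4, had 54.0, 49.1 and 54.3 CPM in control and 111, 159 and 146 CPM in optimized libraries, and a log2 fold change of 1.40 (SE 0.13, edgeR adjusted p = 2.6e-05). It shares 40.1% of its exon bases with Csnk1d on the opposite strand, which had 2.14 times its mean count, and whether reads were counted by strand is not stated. Tigar, a phosphatase that lowers the activator of phosphofructokinase and so opposes Pfkfb3, had 12.8, 12.1 and 12.7 CPM in control and 27.6, 27.6 and 26.9 CPM in optimized libraries, and its log2 fold change was 1.13 (SE 0.09, edgeR adjusted p = 1.1e-05). Pdp2, a phosphatase that switches pyruvate dehydrogenase back on, had 16.0, 13.2 and 12.8 CPM in control and 6.76, 6.93 and 6.28 CPM in optimized libraries, and a log2 fold change of -1.07 (SE 0.13, edgeR adjusted p = 1.8e-04). Among 7 transporters of glucose and lactate 3 were higher and 2 lower, and among 7 other genes of mitochondrial pyruvate use 1 was higher and 3 lower. Among 7 other glycolysis enzymes tested 1 was higher and 2 lower, with a median of -0.07. Among 5 other pentose phosphate enzymes tested 1 was higher and 0 lower, with a median of 0.03. For 5 tested genes of gluconeogenesis and glycerol phosphate the counts were 2 higher and 1 lower. Among 10 other TCA and malic enzyme genes 0 were higher and 3 lower. Both counts of 0 were also 0 at an unadjusted p under 0.05 and with DESeq2.

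Listed targets of HIF outside glycolysis were largely higher in optimized cultures, with 10 of 13 called, against 4 of 8 regulators. The list was chosen with earlier results of these data known. Of its 21 genes, 14 were higher and 0 lower with a median log2 fold change of 0.63, against 14.7% of all genes tested that were higher. The count of 0 was also 0 at an unadjusted p under 0.05 and with DESeq2, and Egln2, a hydroxylase like Egln3, was called lower with library size alone or without optimized library 2. Hif1a, the oxygen-regulated subunit, had 159.8, 165 and 148 CPM in control and 342, 305 and 322 CPM in optimized libraries. Its log2 fold change was 1.04 (SE 0.09, edgeR adjusted p = 1.4e-05), on the level of RNA, while the protein is known to be controlled mainly through its breakdown. Egln3, a prolyl hydroxylase that marks the protein for this breakdown and is itself a HIF target, had 17.1 ± 0.939 CPM in the 3 control libraries and 115 ± 10.8 CPM in the 3 optimized ones (mean ± SD). Its rise was the largest of the list, at 2.75 (SE 0.10, edgeR adjusted p = 9.3e-08) on the log2 scale. Vhl, the subunit of the ubiquitin ligase that recognises the mark, had a log2 fold change of 1.37 (SE 0.10, edgeR adjusted p = 5.6e-06). Bnip3, a mitophagy receptor, rose from 28.1, 34.1 and 31.3 CPM to 91.0, 103 and 100.4 CPM with a log2 fold change of 1.65 (SE 0.10, edgeR adjusted p = 1.6e-06), and Mxi1, a repressor in the MYC network, had 1.13 (SE 0.09, edgeR adjusted p = 6.8e-06). The groups did not overlap for 15 of the 21 genes, against 43.9% of all genes tested. Ankrd37, a further target called higher, shares 61.7% of its exon bases with Ufsp2 on the opposite strand, which had 9.28 times its mean count.

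**Figure D5:**
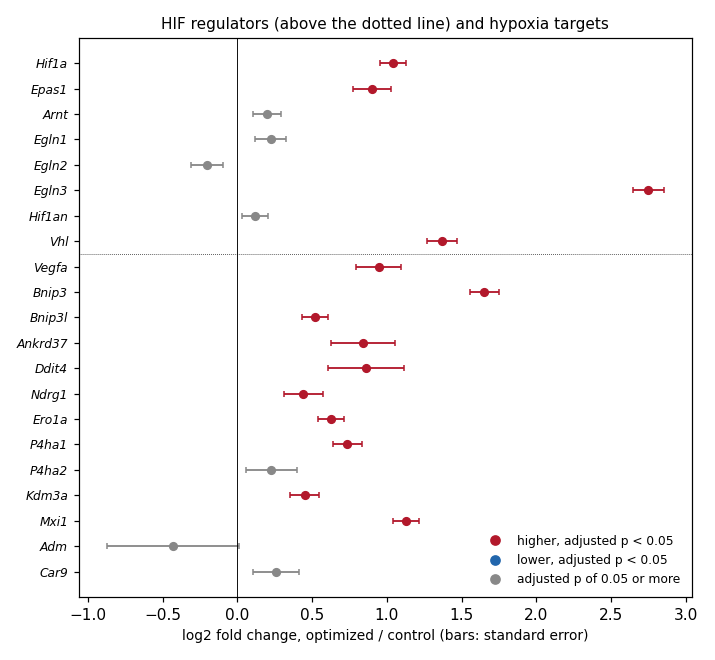
Log2 fold change (optimized over control, x axis) of 8 regulators of HIF, above the dotted line, and 13 target genes outside glycolysis, with bars for the standard error. Red points are higher at an adjusted p under 0.05 (edgeR) and grey points did not pass. Egln3 lies farthest to the right at 2.75, and Adm, at -0.43, has the longest bar.

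Gapdh and Pgk1 also serve as reference genes for normalising RT-qPCR, so Gapdh was set against other commonly used ones. Of 11 reference genes in the table, Gapdh and Gusb were higher, Sdha was lower and 8 did not pass, against 29.8% of all genes called. Gusb, a lysosomal glucuronidase, had a log2 fold change of 0.49 (edgeR adjusted p = 0.012), and Sdha, a subunit of succinate dehydrogenase in the TCA cycle, -0.30 (edgeR adjusted p = 0.018). The Gusb call was lost without control library 1, control library 2 or optimized library 3, and with a spline of gene length removed. That of Sdha was lost without control library 1, control library 3 or optimized library 3. The ratio of Gapdh to Ppia counts was 0.325, 0.314 and 0.295 in control and 0.573, 0.534 and 0.557 in optimized libraries, which is 1.78-fold. The ratio was 1.52-fold higher against Actb, 1.60-fold against B2m, 1.65-fold against Sdha, 1.15-fold against Rpl13a and 1.38-fold against Pgk1, in each case without overlap between groups. Against Ywhaz it was 1.24-fold, against Tbp 1.30-fold and against Gusb 0.956-fold, with overlap. The exact permutation test of 10 such ratios cannot give a p below 0.1 with 3 libraries a group. As given above, Gapdh and Pgk1 have near-identical copies in the genome, so these ratios are uncertain too. The other reference genes were not searched for copies. The Gapdh call itself was lost under 8 of 17 alternative settings.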

How the data were processed

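RNA of 3 control and 3 optimized microglia cultures was sequenced with paired ends. The authors used HISAT2 to map reads (mm39) and featureCounts to count them, per the labels and the methods of the study. Versions, annotation, strand setting and the handling of reads that fit several places are not given in the sources used here. They deposited raw counts per gene, not normalized, and FPKM values for the same 41079 genes. The deposited FPKM were checked in 16498 genes to be the counts over one constant per gene and another per library, the former taken as the length of the gene. Samples were mapped from their labels, and columns by the names in them.

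Counts were filtered with filterByExpr, scaled with TMM and compared by the quasi-likelihood test of edgeR 4.0.16 (R 4.3.3) without further terms, with Benjamini-Hochberg adjustment over 14618 genes and a threshold of 0.05. The standard error is the size of the log2 fold change over the square root of F. The common dispersion was 0.0164, a coefficient of variation between replicates of 0.128. Replicates differed by more than counting noise, with a chi-square per degree of freedom of 10.6 or more, so none was counted as a copy. At library totals of 20628148 to 27261839, Pdk4 was the only member with too few counts to be tested.

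Alternatives were RLE factors in edgeR, scaling by library size without TMM (library size alone), DESeq2 1.42.0, dropping the filter, a minimum of 10 counts per library, a block for the replicate number, a spline of gene length with 4 degrees of freedom removed, with and without the block, each library left out, and limma 3.58.1 on log2(FPKM + 0.1) and log2(FPKM + 1), the latter also for a mean FPKM of at least 1. The pseudocount makes fold changes of low genes too small in these limma fits. Shares within a family were computed from FPKM and compared with exact two-sided permutation tests. Alternatives were shares of CPM and, added after the data were seen, of CPM per length of the canonical transcript. The steps were tested on simulated counts.

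Members and lists (49 neighbouring genes, 21 HIF genes, 12 reference genes and cell type markers) were chosen with earlier results of these data known. Hprt and the astrocyte marker Chil1 were not matched in the table. Values for every library are given for Gapdh and for called members whose log2 fold change is 0.5 or more in size. Neighbours and HIF genes are named where they are called and the log2 fold change is 1 or more in size, as are Hif1a and every called reference gene. Other genes named from these lists were chosen after their values were seen, as were members given by library beyond the rule. Gene spans and exon overlaps are from GENCODE M39 on GRCm39, and 100-base windows of the canonical transcript were searched in the same genome. Promoters are from RefSeq on GRCm38.p6, in which 49 of the 50 members had a window and Idh3a had none.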

Additional observations from a re-analysis of the deposited data

How the results depend on the processing

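Each member was recomputed under 17 alternatives. Of the 833 values, 732 kept their side of the threshold, 44 no longer passed it and 57 newly passed it. Among values that passed in the main fit or in the alternative, 0 reversed their direction. Values that passed in neither could change sign and are among the 732, as for Hk1, which ranged from -0.15 to 0.09. Of the 22 called members 13 passed under all 17, namely Hk2, Pfkl, Pfkfb3, Pgam1, Eno1 and Ldhb among the 12 higher and Hk3, Pfkp, G6pdx, Pgd, Tkt, Idh1 and Acod1 among the 10 lower ones. The counts by list moved more. With library size alone, the lower counts were 18 for all members, 9 for TCA, 2 for pyruvate dehydrogenase, 1 for HIF genes and 4 for reference genes, and the higher counts were 0 for TCA, 0 for pyruvate dehydrogenase and 1 for reference genes. With limma on log2(FPKM + 1) and on log2(FPKM + 0.1), 7 members were higher and 16 lower. With limma for a mean FPKM of at least 1, 17 members were lower and 1176 of all genes were higher. In all 3 limma fits, TCA counted 0 higher and 9 lower, pyruvate dehydrogenase 0 higher and 1 lower (2 lower in the last), HIF genes 1 lower and reference genes 1 higher and 2 lower. By construction these fits and library size alone leave out the TMM factors. Without a filter on low counts, pyruvate dehydrogenase counted 0 higher and reference genes 2 lower, and with DESeq2 reference genes counted 2 lower. With the length spline removed, TCA counted 2 higher and 8 lower, the pentose phosphate pathway 1 higher, and reference genes 1 higher and 3 lower. The cause of the changes under the filter, DESeq2 and the length spline was not tested.

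When each library was left out in turn, the counts ranged as follows. All members had 7 to 18 higher and 7 to 11 lower. TCA had 0 to 3 higher and 2 to 5 lower. Pyruvate dehydrogenase had 0 to 1 higher, and the pentose phosphate pathway 0 to 1 higher. Neighbours had 7 to 11 lower, HIF genes 0 to 1 lower, and reference genes 0 to 3 higher and 0 to 2 lower. These fits have fewer samples. Of the isozyme shares, 14 did not overlap both as CPM and as CPM per canonical transcript length, against 13 as FPKM.

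The methods name no pairing of same-numbered libraries, and whether they were paired cannot be told from the data. The deviations of same-numbered libraries from their group means correlated at 0.27, -0.01 and 0.18 over 14618 genes. Control library 1 correlated best with optimized library 1, but control library 3 did so with optimized library 2, at 0.19. Control library 2 and optimized library 2 did not correlate best with each other. With 3 libraries a group, these deviations depend on each other. With the replicate block, 2401 genes were higher and 2523 lower, 15 members were higher and 12 lower, and 5 members changed sides, all to called (Aldoa, Pkm, Cs, Idh3a and Mdh1). TCA then counted 2 higher, and reference genes 2 lower. With the length spline removed and the replicate block together, TCA counted 2 higher and 8 lower, the pentose phosphate pathway 1 higher and reference genes 3 lower. Only Pdk4 among the members had too few counts to be tested. The effect of depth on other low members, such as Aldoc (58 to 97 counts, SE 0.24), was not tested. With 3 libraries a group, every permutation test is limited to p = 0.1.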

Other observations

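A few neighbouring genes, chosen after their values were seen, carry out the reaction of a member in another form or feed the pathways. H6pd, which carries out the first oxidative reaction in the endoplasmic reticulum, had 77.5, 73.1 and 71.9 CPM in control and 127, 118 and 122 CPM in optimized libraries, and a log2 fold change of 0.72 (SE 0.08, edgeR adjusted p = 8.7e-05), while cytosolic G6pdx fell. Eno3, the muscle-type enolase, had 443, 429.6 and 485 CPM in control and 236, 336 and 289 CPM in optimized libraries and a log2 fold change of -0.66 (SE 0.13, edgeR adjusted p = 0.0032), while Eno1 rose. Eno3 was outside the enolase family used for the shares, and had a mean of 84.2 FPKM in control and 48.4 FPKM in optimized cultures. Of the glucose transporters, Slc2a1 rose from 95.3, 85.9 and 92.1 CPM to 118, 134 and 142 CPM, with a log2 fold change of 0.53 (SE 0.09, edgeR adjusted p = 0.0021), and Slc2a6, a transporter of lysosomes in macrophages, fell from 100.2, 101 and 109 CPM to 56.8, 66.7 and 65.2 CPM, with a log2 fold change of -0.72 (SE 0.09, edgeR adjusted p = 2.2e-04). Mpc1, a subunit of the mitochondrial pyruvate carrier, rose from 51.0, 59.0 and 61.1 CPM to 89.3, 111 and 95.2 CPM, with a log2 fold change of 0.79 (SE 0.11, edgeR adjusted p = 3.8e-04), and shares 14.1% of its exon bases with 4930506C21Rik on the opposite strand. In each of these 5 genes the libraries of the groups did not overlap.

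Eno1b, a near-copy of Eno1 that is listed as a gene of its own, had 8.02% of the mean count of Eno1 and a log2 fold change of 0.94 (SE 0.10, edgeR adjusted p = 9.3e-05), close to that of Eno1.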
